A study of Mus musculus with 24 samples.

Results

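Common lymphoid progenitors (CLPs) that had lost both PLCγ1 and PLCγ2 were compared with wild-type CLPs. All 6 CLP libraries labelled with one of these genotypes were used, 3 of Plcg1-/-Plcg2-/- and 3 of Plcg1+/+Plcg2+/+, each from 1 recipient mouse, out of 12 CLP libraries and 24 libraries in the whole series. The series holds RNA-seq of CLPs and B cell progenitors of 4 genotypes, the other two genotypes lacking only PLCγ1 or only PLCγ2.

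The CLPs were sorted as CD45.2+Lin-IL-7R+ BM cells from lethally irradiated CD45.1+ recipients, weeks after they had been given donor BM. All donors, those of the wild-type group included, carried MxCre and a Rosa-YFP reporter on a mixed 129 and C57BL/6 background and had been treated with poly(I-C), which drives Cre from the type I IFN-inducible Mx promoter. The Plcg1-/-Plcg2-/- donors carried floxed Plcg1 alleles and a germline deletion of Plcg2, whereas the Plcg1+/+Plcg2+/+ donors carried intact alleles of both genes. How many donors each genotype had is not given in the sources used here, so n counts recipients, the p-values measure the spread between recipients, and a difference between donors and one between genotypes cannot be told apart.

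CLPs are marrow progenitors that give rise to B, T and NK cells and depend on the IL-7 receptor, which signals through JAK kinases and STAT5. PLCγ1 and PLCγ2 cut the membrane lipid PIP2 into IP3, which releases calcium and so activates calcineurin and NFAT, and diacylglycerol, which activates protein kinase C and the Ras activators of the RasGRP family. ERK, NF-κB and mTOR lie downstream of these messengers. The comparison was made to ask which genes and programmes differ in progenitors when both enzymes are missing, before the B cell stages.

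Reads on genes numbered from 4291310 to 33219995 per library, and 17.9% to 29.8% of the reads fell on no gene. Counts were scaled by edgeR's TMM factors to normalized CPM, in which a count is divided by the size of its library, and 15209 of 24421 genes passed its filter on low counts. A gene was called changed where the Benjamini-Hochberg adjusted p of the quasi-likelihood test in edgeR did not exceed 0.05 and the log2 fold change was 0.5 or more in size. Log2 fold changes are Plcg1-/-Plcg2-/- relative to Plcg1+/+Plcg2+/+, and their median over all tested genes was -0.03.

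The libraries carried CLP markers, with 8 markers summing to 1867 to 4225 normalized CPM in the wild-type and 1451 to 3105 in the double-deficient libraries. One wild-type library stood apart. Wild-type replicate 1 had 735 normalized CPM of Flt3, the cytokine receptor of early lymphoid progenitors, against 25.6 and 58.5 in the other two, and its 6 B lineage markers summed to 576 against a highest wild-type sum of 3841. The 6 B lineage markers summed to 1548 to 4582 in Plcg1-/-Plcg2-/- CLPs, within which range the other wild-type libraries also fell. The 5 granulocyte and monocyte markers present among the counted genes summed to 1727 to 2645 normalized CPM in wild-type and 2676 to 5969 in double-deficient CLPs. These sums did not overlap, by a narrow margin, and of the 5 genes only Mpo separated the genotypes. Elane, S100a8, S100a9 and Itgam each overlapped. T cell markers summed to 21.97 to 75.4 and 9.22 to 44.2 normalized CPM respectively, and the haemoglobin genes Hbb-bt and Hba-a1 had no reads. In sorted bulk samples, fewer cells of a type and less RNA per cell cannot be told apart.

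**Figure D1:**
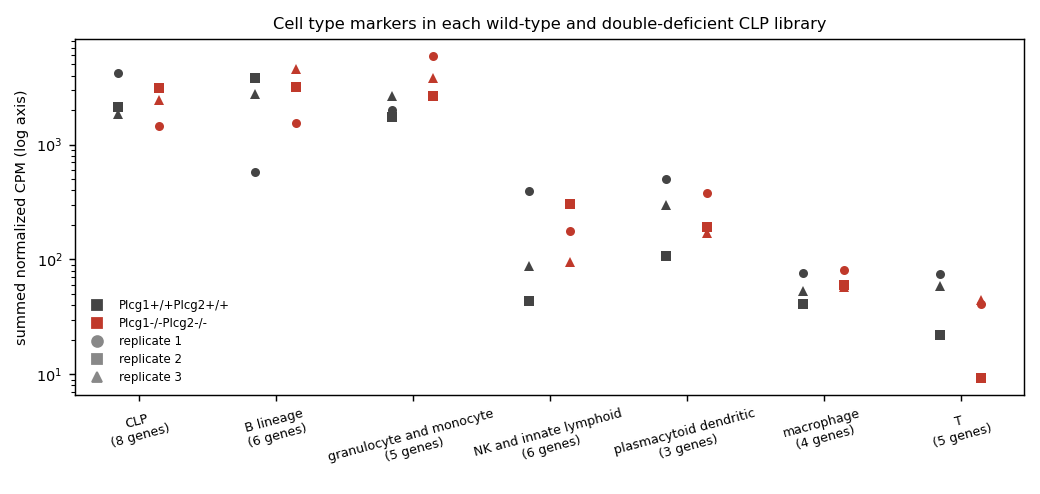
Summed normalized CPM (log axis) of the markers of 7 cell types in each wild-type (grey) and double-deficient (red) CLP library, with 1 symbol per replicate number. Wild-type replicate 1 (circle) is lowest in B lineage markers at 576. The granulocyte and monocyte sums are the only ones here whose genotypes do not overlap, narrowly, from 1727 to 2645 against 2676 to 5969. Of the 5 genes in these sums only Mpo separates the genotypes.

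The targeted genes were examined first. Plcg2 (chr8:117498275-117635142, GRCm38) had 196, 279 and 220 normalized CPM in the 3 Plcg1+/+Plcg2+/+ libraries and 114, 95.1 and 115 in the 3 Plcg1-/-Plcg2-/- libraries. All double-deficient libraries were below all wild-type ones, and the gene fell by 1.10 on the log2 scale (SE, the standard error, 0.16, adjusted p = 0.0375, edgeR). Plcg1 (chr2) had 107, 112 and 100 normalized CPM in wild-type and 87.3, 144 and 185 in double-deficient CLPs. Its groups overlapped, so these counts over a whole gene, which do not resolve single deleted exons, did not separate the Plcg1 genotypes. In these libraries its genotype rests on the labels. By western blot the paper found no PLCγ1 in YFP+ BM cells of double-deficient recipients. The sort given above for the CLPs names no YFP gate.

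The libraries also differed in sex-linked transcripts. Xist, the RNA that silences one X chromosome in females, had 81.1, 23.5 and 339 normalized CPM in wild-type and 2028, 1622 and 1382 in double-deficient CLPs. The Y-linked genes Ddx3y and Eif2s3y, an RNA helicase and a translation initiation factor, fell, with log2 fold changes of -4.84 (SE 0.60, adjusted p = 0.0250, edgeR) and -4.66 (SE 0.61, adjusted p = 0.0257, edgeR). Sex-linked transcript levels and genotype therefore cannot be told apart in the comparison with wild-type. CLPs labelled Plcg1-/-Plcg2+/+ resembled the double-deficient ones in this respect, with means of 12.4 normalized CPM of Ddx3y and 11.5 of Eif2s3y, whereas Plcg1+/+Plcg2-/- CLPs had 117 and 106.

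In double-deficient CLPs 14 genes were called changed, 0.0921% of those tested, with 6 higher (0.0395%) and 8 lower (0.0526%). The 8 were Plcg2, Ddx3y, Eif2s3y, Serinc3, Ccr7, Blk, Rasgrp1 and C130046K22Rik, and the 6 were Rnase12, Pcdh9, Cacna1i, 2510009E07Rik, Ctse and H2-T10. Among all tested genes 5.85% had all 3 double-deficient libraries above all 3 wild-type ones and 7.75% had them below. At an unadjusted p up to 0.05, 3.68% of tested genes were higher and 3.84% lower, the background against which the lists are read. This background moved when 1 library was left out, so counts of list members without a library are read against its share. Without wild-type replicate 1 the shares were 6.02% higher and 6.55% lower. Leaving out any other library gave 2.58% to 3.36% higher and 2.25% to 3.22% lower. The set of called genes depended on single libraries. Without wild-type replicate 1, 44 genes were called (7 higher, 37 lower), 11 of the 14 among them, whereas without wild-type replicate 2 only Blk and Serinc3 were called. Only Serinc3 was called without double-deficient replicate 2 and no gene without double-deficient replicate 3 (943 genes at an unadjusted p up to 0.05, edgeR). DESeq2 on the same libraries called 169 genes, all 14 among them.

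Promoter sequences of 10 of the 14 called genes were found in RefSeq's GRCm38.p6, each running from 250 bases before to 50 after the start of the gene. Those of 2 genes that fell, Rasgrp1 and Serinc3, and 2 that rose, Rnase12 and Cacna1i, are shown 5′ to 3′ on the gene's strand so that the letters of the called genes can be compared.
Rasgrp1 (chr2:117342828-117343127, minus strand): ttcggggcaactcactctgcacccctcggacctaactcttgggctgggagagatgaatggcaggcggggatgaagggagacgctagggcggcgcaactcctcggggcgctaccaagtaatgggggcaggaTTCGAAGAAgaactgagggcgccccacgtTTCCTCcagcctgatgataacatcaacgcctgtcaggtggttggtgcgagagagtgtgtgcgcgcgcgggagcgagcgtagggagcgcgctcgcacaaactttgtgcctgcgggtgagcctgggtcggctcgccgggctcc
Serinc3 (chr2:163645094-163645393, minus strand): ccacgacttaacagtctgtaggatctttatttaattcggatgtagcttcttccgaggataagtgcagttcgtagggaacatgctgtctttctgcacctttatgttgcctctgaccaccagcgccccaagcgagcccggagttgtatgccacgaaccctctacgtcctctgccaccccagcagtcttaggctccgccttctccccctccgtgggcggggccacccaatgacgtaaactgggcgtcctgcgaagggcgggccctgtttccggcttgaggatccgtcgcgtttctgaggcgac
Rnase12 (chr14:51057193-51057492, minus strand): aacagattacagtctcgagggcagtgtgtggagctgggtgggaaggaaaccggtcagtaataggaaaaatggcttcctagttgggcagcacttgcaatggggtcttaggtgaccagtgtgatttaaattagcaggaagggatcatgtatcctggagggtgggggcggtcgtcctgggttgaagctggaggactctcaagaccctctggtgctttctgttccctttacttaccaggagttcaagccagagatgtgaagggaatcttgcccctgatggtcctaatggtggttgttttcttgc
Cacna1i (chr15:80286988-80287287, plus strand): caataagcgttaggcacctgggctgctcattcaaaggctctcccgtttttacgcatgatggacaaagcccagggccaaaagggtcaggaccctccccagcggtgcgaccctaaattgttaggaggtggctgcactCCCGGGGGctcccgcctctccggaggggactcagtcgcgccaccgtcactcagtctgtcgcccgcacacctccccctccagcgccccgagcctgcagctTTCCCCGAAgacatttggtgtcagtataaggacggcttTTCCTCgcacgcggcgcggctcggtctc
Capitals mark, on either strand, the core of PU.1 sites (GAGGAA), the STAT palindrome (TTCNNNGAA) and the core of EBF sites (CCCNNGGG), and an E-box (CAGCTG) and the AP-1 site (TGANTCA) were also searched. Of 32851 promoter windows of this length, 28.3% held the PU.1 core, 8.30% the STAT palindrome, 13.7% the EBF core, 16.3% the E-box and 7.81% the AP-1 letters. The Rasgrp1 window held 1 STAT palindrome and 1 PU.1 core, the Cacna1i window held 1 of each and 1 EBF core, and the windows of Serinc3 and Rnase12 held none of the 5. A match of letters is a description of this window and not a binding site.

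Of the lower genes, Serinc3 (chr2:163623273-163645149), which encodes a multipass membrane protein of the serine incorporator family, had 1134, 1522 and 1453 normalized CPM in wild-type and 429, 261 and 287 in double-deficient CLPs. The groups lay far apart, and Serinc3 fell by 2.07 on the log2 scale (SE 0.19, adjusted p = 0.00438, edgeR). Serinc3 was also called lower relative to each single-deficient genotype, with log2 fold changes of -1.91 against Plcg1-/-Plcg2+/+ and -2.57 against Plcg1+/+Plcg2-/-. The gene lies 2.89 Mb from Plcg1 on the same chromosome.

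Rasgrp1 (chr2:117279983-117342877), a diacylglycerol-activated exchange factor that loads Ras with GTP, had 59.2, 46.9 and 45.8 normalized CPM in wild-type and 20.3, 19.5 and 10.3 in double-deficient CLPs. It fell by 1.60 on the log2 scale (SE 0.24, adjusted p = 0.0375, edgeR). Both single-deficient genotypes kept levels near those of wild-type, with means of 50.3 and 48.4, and the double-deficient levels missed the threshold against each of them (adjusted p = 0.0683 and 0.0514, edgeR).

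Blk (chr14:63372837-63417187), a Src family kinase of the B lineage, had 98.3, 272 and 130 normalized CPM in wild-type and 31.7, 30.4 and 18.1 in double-deficient CLPs (log2 fold change -2.63, SE 0.35, adjusted p = 0.0257, edgeR). Ccr7 (chr11:99144199-99155077), the chemokine receptor that guides lymphocytes to CCL19 and CCL21, had 39.0, 53.7 and 72.2 against 8.18, 12.5 and 12.1 normalized CPM (log2 fold change -2.33, SE 0.28, adjusted p = 0.0250, edgeR). The single-deficient means of both lay between those of wild-type and double-deficient CLPs, at 106 and 84.9 for Blk and 33.5 and 24.4 for Ccr7. C130046K22Rik (chr11:103697724-103725573), an unnamed RIKEN cDNA, was at a low level throughout, with means of 4.42 ± 0.991 normalized CPM in wild-type and 0.273 ± 0.0915 in double-deficient CLPs (SD, n = 3).

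Of the higher genes, Rnase12 (chr14:51056698-51057242), a member of the ribonuclease A family, had 0.724, 0.484 and 2.58 normalized CPM in wild-type and 15.9, 35.3 and 40.5 in double-deficient CLPs. This rise of 4.37 log2 units (SE 0.59, adjusted p = 0.0257, edgeR) was the largest among the called genes, and both single-deficient means, 8.26 and 11.02, lay between. Cacna1i (chr15:80287238-80398292), the pore subunit of a T-type calcium channel, had 12.1, 24.2 and 27.7 normalized CPM in wild-type and 114, 206 and 290 in double-deficient CLPs (log2 fold change 3.25, SE 0.50, adjusted p = 0.0439, edgeR). It stayed at means of 23.3 and 36.1 in the single-deficient genotypes.

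Pcdh9 (chr14:93013700-93892834), a protocadherin adhesion molecule, rose from 6.22 ± 3.198 to 64.5 ± 37.6 normalized CPM (SD, n = 3, adjusted p = 0.0494, edgeR), with single-deficient means of 5.16 and 8.83. 2510009E07Rik (chr16:21649045-21694665), a RIKEN cDNA, rose from 8.29 ± 2.93 to 49.3 ± 17.97 (SD, n = 3, adjusted p = 0.0375, edgeR) and was also called higher relative to Plcg1-/-Plcg2+/+ CLPs. Ctse (chr1:131638314-131675507), the aspartic protease cathepsin E, had 34.3, 41.3 and 74.0 normalized CPM in wild-type and 220, 335 and 326 in double-deficient CLPs. It rose by 2.55 on the log2 scale (SE 0.38, adjusted p = 0.0375, edgeR), and its mean was 245 in Plcg1-/-Plcg2+/+ CLPs but 64.0 in Plcg1+/+Plcg2-/- CLPs. The MHC class Ib gene H2-T10 (chr17:36115871-36121444) rose from 29.7 ± 4.93 to 80.9 ± 20.2 normalized CPM (SD, n = 3, adjusted p = 0.0375, edgeR). It belongs to a family of near-identical genes between which reads can be split, so its count is uncertain.

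**Figure D2:**
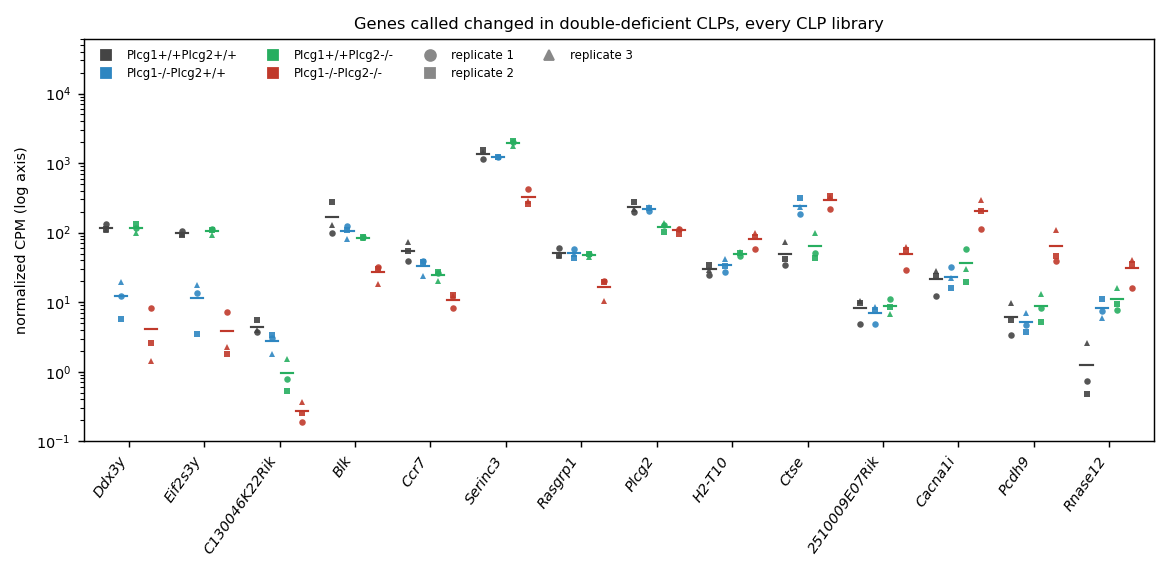
Normalized CPM (log axis) of the 14 called genes in every CLP library of 4 genotypes, with short bars at the group means and genes ordered by log2 fold change. The double-deficient libraries (red) lie wholly below or above the wild-type ones (grey) for each gene, Rasgrp1 is lowest in red (10.3 to 20.3), and Ctse is high in both genotypes labelled Plcg1-/- (means of 245 and 294).

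Against Plcg1-/-Plcg2+/+ CLPs the test called 4 genes (0.0263%), and against Plcg1+/+Plcg2-/- CLPs it called 8 (0.0526%). These comparisons share the double-deficient libraries with the one against wild-type. In B cell progenitors of the same mice 134 genes (0.893%) were called between the double-deficient and wild-type genotypes. The 14 genes had the same sign there, and 12 of them, all but C130046K22Rik and 2510009E07Rik, passed the thresholds. Because both populations came from the same mice, this is not a replication in other animals. Plcg2 is a deleted gene and Ddx3y and Eif2s3y are Y-linked, so for these the same sign could be foreseen in the same mice. A direct test of the difference between both populations called 0 of 17212 genes (0%, edgeR), with 356 genes at an unadjusted p up to 0.05, and DESeq2 also called 0.

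Lineage programmes and pathways were read from 42 gene lists, in which 6 of the called genes stood. Their medians of log2 fold changes lay above 0 in 20 lists and below 0 in 22. Except where a called gene is named, members described here passed only an unadjusted p up to 0.05 in the edgeR fit, and none of the lists was tested as a set. By the adjusted thresholds DESeq2 called more of them in both directions, beside 94 genes higher and 75 lower among all 15209 tested. Lower were, among others, 4 of 34 B lineage members (Blk included), 3 of 23 T lineage, 2 of 15 MHC class II and 2 of 26 NF-κB members. Higher was 1 member in each of the macrophage (25 tested), erythroid (17), cyclin (31), glycolysis (30) and X-inactivation (3) lists, and 1 glycolysis member was lower.

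**Figure D3:**
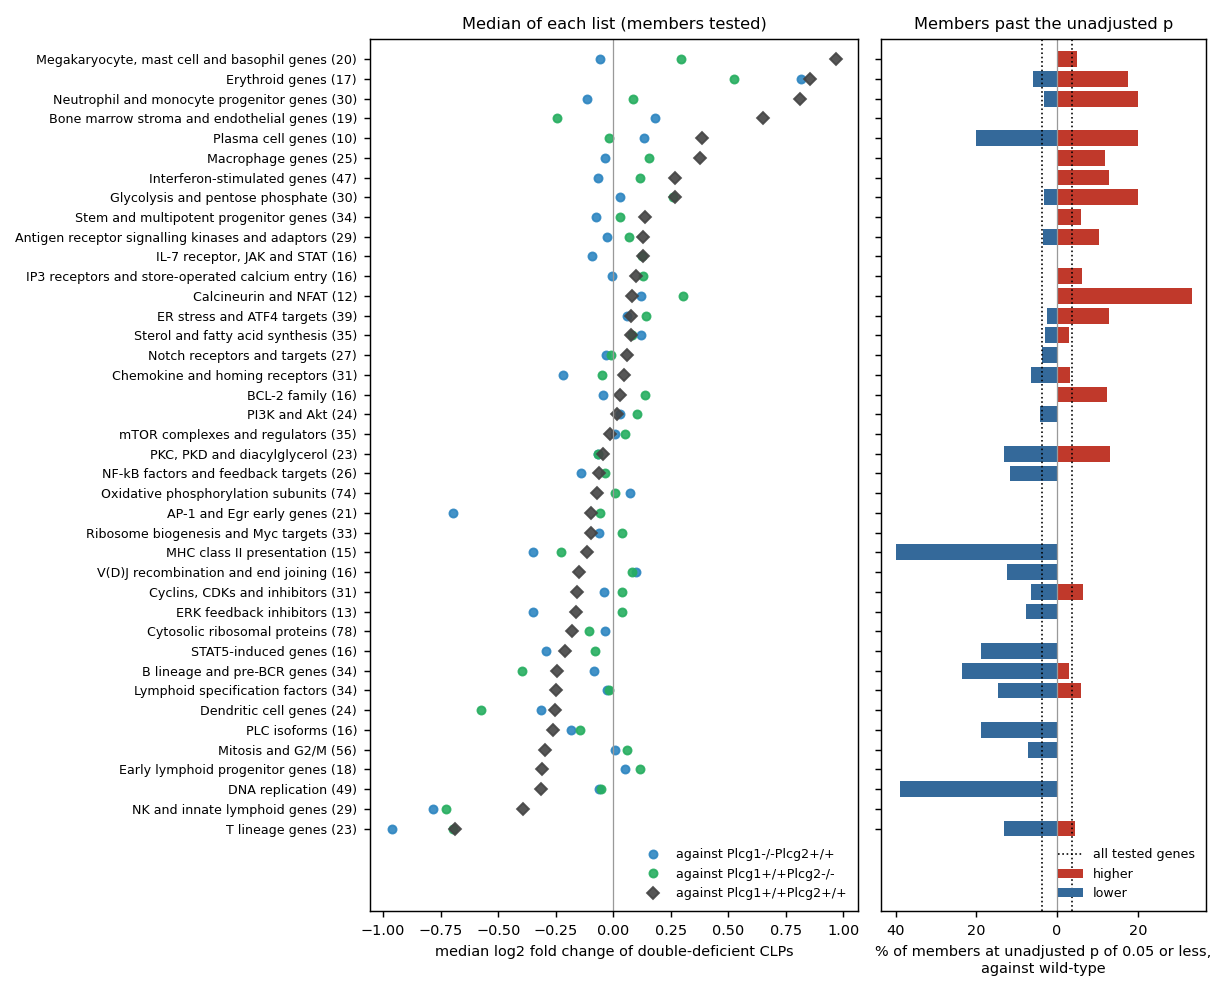
Left, median log2 fold change of double-deficient CLPs for 40 gene lists against wild-type (grey diamonds) and each single-deficient genotype (blue and green circles), with members tested in brackets. Right, percent of members higher (red) or lower (blue) than wild-type at an unadjusted p up to 0.05, with dotted lines at 3.68% and 3.84%, the shares of all tested genes. MHC class II and DNA replication genes have the longest bars to the lower side.

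Of 34 tested B lineage and pre-BCR genes, 8 were lower and 1, Bst1 (named after its value was seen), was higher, with a median of -0.24. Besides Blk, the lowest p-values belonged to Cd72, an inhibitory coreceptor, Fcmr, the Fc receptor for IgM, and Fcer2a, which encodes the IgE receptor CD23 of mature B cells. Cd72 had 106, 424 and 254 normalized CPM in wild-type and 66.6, 75.4 and 66.9 in double-deficient CLPs. Fcmr had 9.996, 39.2 and 44.0 against 5.71, 1.21 and 2.06, and Fcer2a 8.19, 12.6 and 19.01 against 4.04, 0.603 and 1.07. All 3 had their double-deficient libraries below the wild-type ones and missed the adjusted threshold (adjusted p = 0.115, 0.218 and 0.370, edgeR).

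Genes that define commitment to the B lineage did not follow them. Ebf1, the factor that specifies the lineage, had 99.9, 770 and 523 normalized CPM in wild-type and 189, 460 and 688 in double-deficient CLPs. The genotypes overlapped, as they did in Cd79a, Igll1 and Vpreb1. The surrogate light chain gene Vpreb1 was 1.15 log2 units higher (SE 0.62, adjusted p = 0.708, edgeR). Wild-type replicate 1 was the lowest of the 6 libraries in these genes, and without it 12 B lineage members were lower and 1 higher, with a median of -0.65, whereas without wild-type replicate 2 the median was 0.05 and 5 were lower.

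Among 34 lymphoid specification factors 5 were lower and 2 higher, with a median of -0.25. Ikzf1 and Ikzf3, which encode the zinc finger proteins Ikaros and Aiolos, were lower in every double-deficient library. Ikzf3 had 145, 215 and 180 normalized CPM in wild-type and 94.7, 110 and 101 in double-deficient CLPs, and Ikzf1 807, 916 and 723 against 465, 596 and 565. Irf4, needed for pre-B cells and plasma cells, had 66.7, 603 and 448 against 77.0, 73.6 and 152, and Bach2, a repressor in B cells, 111, 611 and 353 against 120, 103 and 135. For Irf4 and Bach2 wild-type replicate 1 lay with the double-deficient libraries. The remaining lower member was Foxp1, and the higher ones were Erg and Bcl11a, all named after their values were seen. Without wild-type replicate 1, 10 members were lower and 2 higher, and without wild-type replicate 2, 2 were lower and 2 higher with a median of -0.08. Against Plcg1-/-Plcg2+/+ and Plcg1+/+Plcg2-/- CLPs the medians were -0.03 and -0.02, with 1 and 2 members lower.

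MHC class II genes held the largest share of lower members among the lists beside the Y-linked one, 6 of 15, with a median of -0.12 and 6 members of positive sign. H2-Eb1, a β chain, had 69.1, 104 and 159 normalized CPM in wild-type and 51.9, 24.3 and 24.4 in double-deficient CLPs. Ciita, the transactivator of class II genes, had 18.98, 45.5 and 39.6 against 15.7, 6.55 and 5.78. The other lower members were the chains H2-Aa and H2-Ab1, the peptide exchange factor H2-DMb2 and the invariant chain Cd74, with log2 fold changes from -1.57 to -0.98. Neither H2-Eb1 nor Ciita passed the adjusted threshold (adjusted p = 0.220 and 0.338, edgeR). Leaving out 1 library gave between 4 and 6 lower members and a median between -0.48 (without double-deficient replicate 1) and -0.09 (without double-deficient replicate 3). The medians against Plcg1-/-Plcg2+/+ and Plcg1+/+Plcg2-/- CLPs were -0.35 and -0.23.

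T lineage genes had a median of -0.69 over 23 tested members, of which 3 were lower and 1 higher. Il2ra, which encodes CD25, had 23.9, 77.9 and 31.5 normalized CPM in wild-type and 7.85, 11.03 and 5.99 in double-deficient CLPs, with a log2 difference of -2.41 (SE 0.42, adjusted p = 0.0832, edgeR). The Notch target Dtx1 had 9.42, 19.1 and 9.28 against 3.19, 0.776 and 1.16, and the adhesion molecule Cd2 24.4, 42.6 and 41.2 against 15.98, 9.31 and 13.95. Zap70, the kinase of the T cell receptor, was higher, with 44.9, 38.2 and 31.0 against 46.5, 124 and 149. Regulators of T cell commitment such as Tcf7, Gata3 and Bcl11b were high in wild-type replicate 1 and overlapped between genotypes. Without that library the median turned to 0.28, and 3 members were lower and 1 higher. The NK and innate lymphoid list (29 tested) had no member past the unadjusted p and a median of -0.39, which became 1.32 without wild-type replicate 1.

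**Figure D4:**
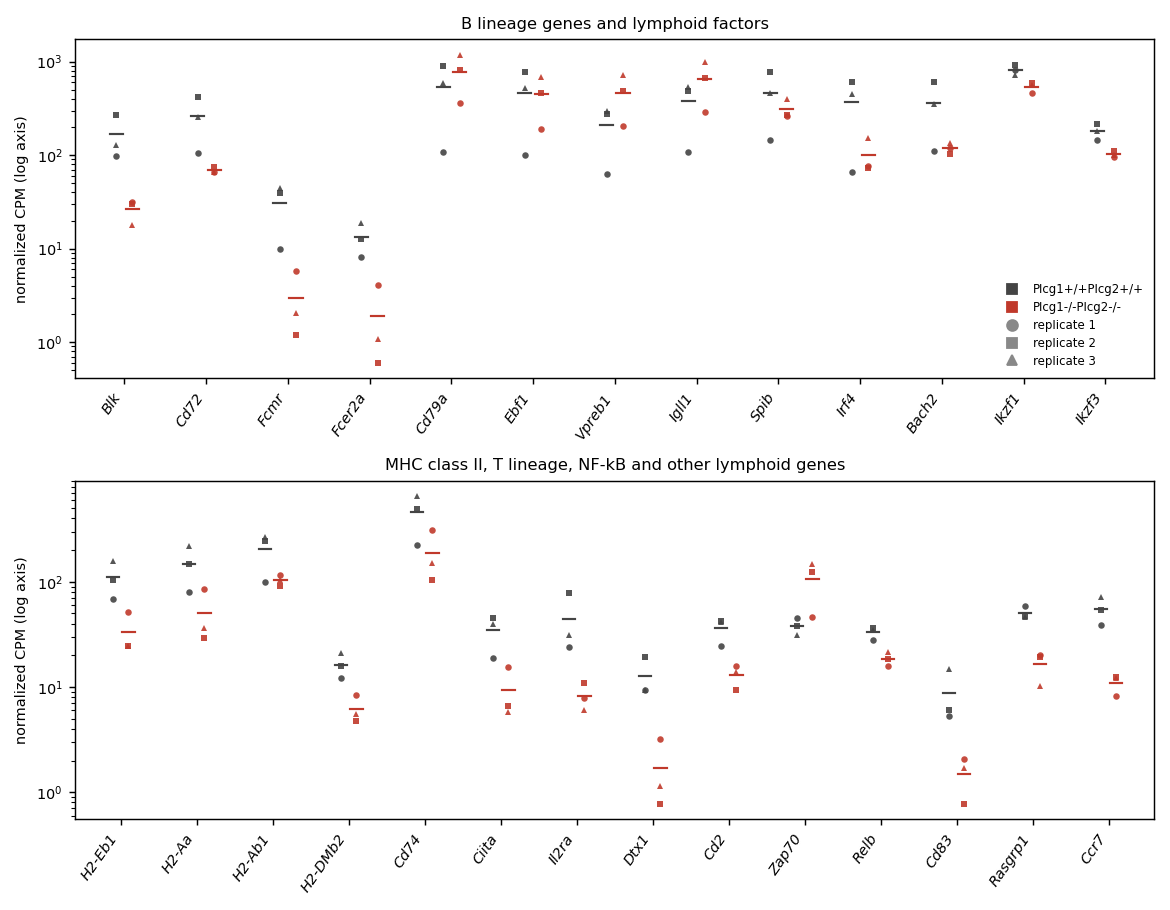
Normalized CPM (log axis) of lymphoid genes in each wild-type (grey) and double-deficient (red) CLP library, with short bars at the group means and 1 symbol per replicate number. Blk, Cd72, Fcmr and Fcer2a separate the genotypes whereas Cd79a and Ebf1 overlap, and wild-type replicate 1 (circle) lies with the double-deficient libraries in Irf4 and Bach2.

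Among 18 early lymphoid progenitor genes none was past the unadjusted p in either direction. Il7r, which encodes the receptor chain used in the sort, had 355, 429 and 238 normalized CPM in wild-type and 133, 430 and 334 in double-deficient CLPs. Rag1, of the recombinase, had 178, 745 and 517 against 377, 819 and 867, and the terminal transferase gene Dntt 1681, 526 and 607 against 193, 984 and 724. The median of the list was -0.31, and 0.13 without wild-type replicate 1. Of 16 genes of V(D)J recombination and end joining 2 were lower, Polm and Hmgb1, and none higher, and 6 were lower without wild-type replicate 1.

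Among 16 tested phospholipase C isoforms Plcg2, Plce1 and Plcl2 were lower and none was higher. Of 23 protein kinase C, D and diacylglycerol genes, 3 were higher and 3 lower. Rasgrp2, a related exchange factor that acts on Rap1, had 279, 346 and 331 normalized CPM in wild-type and 366, 501 and 594 in double-deficient CLPs, opposite to Rasgrp1, and Prkcd and Dgkh were also higher. The lower ones were Rasgrp1 and the diacylglycerol kinases Dgke and Dgkd, the last named after its value was seen. Of 12 calcineurin and NFAT genes 4 were higher and none lower, namely the calcineurin regulators Rcan1 and Rcan3, Nfat5 and the catalytic subunit Ppp3ca, and without wild-type replicate 2 the count was 2. Rcan1 had 11.5, 8.95 and 11.9 against 17.9, 15.1 and 17.9 normalized CPM. Of 16 IP3 receptor and store-operated calcium entry genes only Orai1 passed, and it was higher.

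Further downstream, 3 of 26 NF-κB factors and feedback targets were lower and none higher. Relb, a subunit of the alternative pathway, had 28.2, 36.0 and 34.7 normalized CPM in wild-type and 15.7, 18.4 and 21.6 in double-deficient CLPs, the activation marker Cd83 5.29, 6.04 and 14.8 against 2.05, 0.776 and 1.69, and Malt1 a log2 fold change of -0.38. Nfkbia and Tnfaip3, feedback inhibitors, overlapped between genotypes. None of 21 AP-1 and Egr early genes passed in either direction, and these varied between libraries of 1 genotype. Jun had 2389, 1403 and 1401 normalized CPM in wild-type and 587, 3611 and 1400 in double-deficient CLPs. Of 13 ERK feedback inhibitors only the phosphatase Dusp10 passed, and it was lower.

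None of 16 genes of the IL-7 receptor, JAK and STAT pathway passed in either direction, but 4 were higher without wild-type replicate 1. Of 16 STAT5-induced genes, 3 were lower and none higher, namely Il2ra, the survival kinase Pim2 and the cyclin Ccnd2, while Cish, Bcl2 and Mcl1 overlapped. Ccnd2 had 288, 154 and 159 normalized CPM in wild-type and 145, 117 and 67.4 in double-deficient CLPs. None of 35 mTOR genes and 1 of 24 PI3K and Akt genes passed. The latter was the adaptor Irs1, which was low throughout and had 1.01, 11.4 and 5.43 against 0.999, 0.517 and 0.413.

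DNA replication genes held many members with small differences to the lower side. Of 49 tested, 19 were lower at the unadjusted p and none higher, and the median log2 fold change was -0.32. In 26 the double-deficient libraries were below all wild-type ones, as in 7.75% of all tested genes. Mcm7 and Mcm4, of the replicative helicase, and Pold3, of a DNA polymerase, were among the 4 members with the lowest p-values. Mcm7 had 402, 519 and 445 normalized CPM in wild-type and 319, 348 and 360 in double-deficient CLPs, and Mcm4 289, 325 and 312 against 227, 258 and 258. Between 5 members (without wild-type replicate 2) and 33 (without wild-type replicate 1) were lower when 1 library was left out. Of all tested genes 2.51% and 6.55% were lower in these 2 fits. Against the single-deficient genotypes the medians were -0.06 and -0.05.

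Mitosis and G2/M genes had a similar median of -0.30 over 56 members, 54 of them with a negative sign, but only 4 were lower at the unadjusted p. Against Plcg1-/-Plcg2+/+ and Plcg1+/+Plcg2-/- CLPs the medians were 0.01 and 0.06. Mki67 had 977, 1825 and 1566 normalized CPM in wild-type and 1206, 1282 and 1453 in double-deficient CLPs, so wild-type replicate 1 was the lowest. This library decided the count, which was 48 lower members without it, where 6.55% of all tested genes were lower. Without wild-type replicate 2 the median was -0.06 with none lower, against 2.51% of all tested genes. Among 31 cyclins, kinases and inhibitors, the transcription factor gene E2f1 and Ccnd2 were lower, and the p53 target Ccng1 and the inhibitor Cdkn2a were higher, while 9 were lower without wild-type replicate 1.

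Ribosomal protein genes, whose reads can be shared with near-identical pseudogenes, nearly all had the same sign. Of 78 tested, 77 were negative, with a median of only -0.18 and no member past the unadjusted p. In 30 all double-deficient libraries were below the wild-type ones, as in 7.75% of all tested genes. The medians against Plcg1-/-Plcg2+/+ and Plcg1+/+Plcg2-/- CLPs were -0.03 and -0.10. Rps3 had 2277, 2012 and 2041 normalized CPM in wild-type and 1824, 1830 and 1820 in double-deficient CLPs, and Rpl3 1092, 1049 and 1078 against 953, 893 and 990. Oxidative phosphorylation subunits (74 tested) had a median of -0.07 and none past the unadjusted p.

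Glycolysis and pentose phosphate genes went the other way. Of 30 tested, 6 were higher and 1 lower, and the median was 0.27. In 10 all double-deficient libraries were above the wild-type ones, as in 5.85% of all tested genes. Rpia, of the pentose phosphate pathway, had 102, 133 and 127 normalized CPM in wild-type and 176, 234 and 261 in double-deficient CLPs (log2 fold change 0.89, SE 0.17, adjusted p = 0.108, edgeR). The glycolytic enzyme genes Aldoa and Hk1 had 311, 250 and 296 against 442, 436 and 363, and 149, 89.2 and 112 against 210, 181 and 178. Pgls, of the same pathway as Rpia, was the lower member, with 299, 430 and 321 against 178, 182 and 198 (adjusted p = 0.0572, edgeR). Ldha and Slc2a1 overlapped between genotypes. The median was 0.03 against Plcg1-/-Plcg2+/+ and 0.26 against Plcg1+/+Plcg2-/- CLPs, and leaving out 1 library gave between 0.25 and 0.34. The count of higher members was 9 without wild-type replicate 1, and 3 without wild-type replicate 2, wild-type replicate 3 or double-deficient replicate 1.

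Neutrophil and monocyte progenitor genes had a median of 0.81, with 28 of 30 positive, 6 higher and 1 lower (Klf4, named after its value was seen). Cebpb, a factor of myeloid differentiation, had 61.1, 30.2 and 68.9 normalized CPM in wild-type and 95.2, 103 and 86.5 in double-deficient CLPs. The granule protein genes Ltf and Ngp were higher with overlap, and Mpo, the myeloperoxidase of granulocyte precursors, had 1499, 1227 and 1712 against 4325, 1993 and 2094 (adjusted p = 0.681, edgeR). The granulocyte and monocyte marker sums given above were also higher, but Mpo stands in both those sums and this list. The sums are therefore not independent of the list, and the part of such cells in these differences was not tested. Without double-deficient replicate 1 the median was 0.38, and the count of higher members ran from 2 (without wild-type replicate 2) to 10 (without double-deficient replicate 2). Against the single-deficient genotypes the medians were -0.12 and 0.09.

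Macrophage genes had a median of 0.38 over 25 members with 3 higher, the endotoxin receptor gene Tlr4, the iron exporter gene Slc40a1 and the complement gene C1qb, and none lower. Tlr4 had 5.22, 10.9 and 9.76 normalized CPM in wild-type and 17.5, 23.5 and 31.2 in double-deficient CLPs. Leaving out 1 library gave 1 to 5 higher macrophage members, with 1 when double-deficient replicate 1 or 2 was left out. The macrophage medians against Plcg1-/-Plcg2+/+ and Plcg1+/+Plcg2-/- CLPs were -0.04 and 0.15. Erythroid genes had a median of 0.85 over 17 members with 3 higher and 1 lower. The erythropoietin receptor gene Epor had 1.96, 3.87 and 3.57 against 15.7, 5.60 and 8.46, and the transferrin receptor gene Tfrc, which dividing cells of many types use, 729, 480 and 480 against 317, 333 and 312. Without wild-type replicate 1 the erythroid median was 0.40 with 1 member higher, and without wild-type replicate 3 it was 1.70 with 9 higher. Against Plcg1-/-Plcg2+/+ and Plcg1+/+Plcg2-/- CLPs it was 0.81 and 0.53. Stem and multipotent progenitor genes had 2 of 34 higher, Eng and Tal1, none lower and a median of 0.14, which turned to -0.15 without double-deficient replicate 1.

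Interferon-stimulated genes had a median of 0.27, with 39 of 47 positive, 6 higher and none lower, against 0.12 and -0.07 relative to Plcg1+/+Plcg2-/- and Plcg1-/-Plcg2+/+ CLPs. Usp18, a feedback inhibitor of the interferon receptor, had 11.7, 6.29 and 11.3 normalized CPM in wild-type and 15.98, 18.8 and 19.98 in double-deficient CLPs. Mx1 and Isg15 overlapped. The 6 higher members became 2 without double-deficient replicate 3 and 3 without wild-type replicate 2. Of 39 ER stress and ATF4 targets, 5 were higher and 1 lower, with a median of 0.08, and without wild-type replicate 2 none passed. Of 16 BCL-2 family genes Bcl2l2 and Bak1 were higher and none lower.

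Of 29 antigen receptor kinases and adaptors, 3 were higher, Zap70, the adaptor gene Lcp2 (SLP-76) and the phosphatase gene Ptpn22, and Blk was lower, while Syk, Lyn and Btk overlapped between genotypes. Of 31 chemokine and homing receptors, S1pr2 was higher and Ccr7 and Ackr3 lower, with 7 higher without wild-type replicate 1, and of 27 Notch genes only Dtx1 passed. Megakaryocyte, mast cell and basophil genes had a median of 0.97 over 20 members with 1 higher, Vwf, but a median of 0.08 without double-deficient replicate 2. Against Plcg1-/-Plcg2+/+ and Plcg1+/+Plcg2-/- CLPs this list had medians of -0.06 and 0.29. Stroma and endothelial genes had a median of 0.65 over 19 members with none past the unadjusted p, and 0.24 without double-deficient replicate 1. Their medians against Plcg1-/-Plcg2+/+ and Plcg1+/+Plcg2-/- CLPs were 0.18 and -0.25. None of 24 dendritic cell genes passed, with a median of -0.25 that turned to 0.24 without wild-type replicate 1 and was -0.61 without double-deficient replicate 1. Of 10 tested plasma cell genes Jchain and Xbp1 were higher and Irf4 and Sdc1 lower, and none passed without wild-type replicate 2. Jchain had 132, 142 and 360 normalized CPM in wild-type and 1469, 325 and 358 in double-deficient CLPs, so the genotypes overlapped and double-deficient replicate 1 stood above the others. Of 35 sterol and fatty acid genes 1 was higher and 1 lower, and none of 33 ribosome biogenesis and Myc targets passed, with a median of -0.10.

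**Figure D5:**
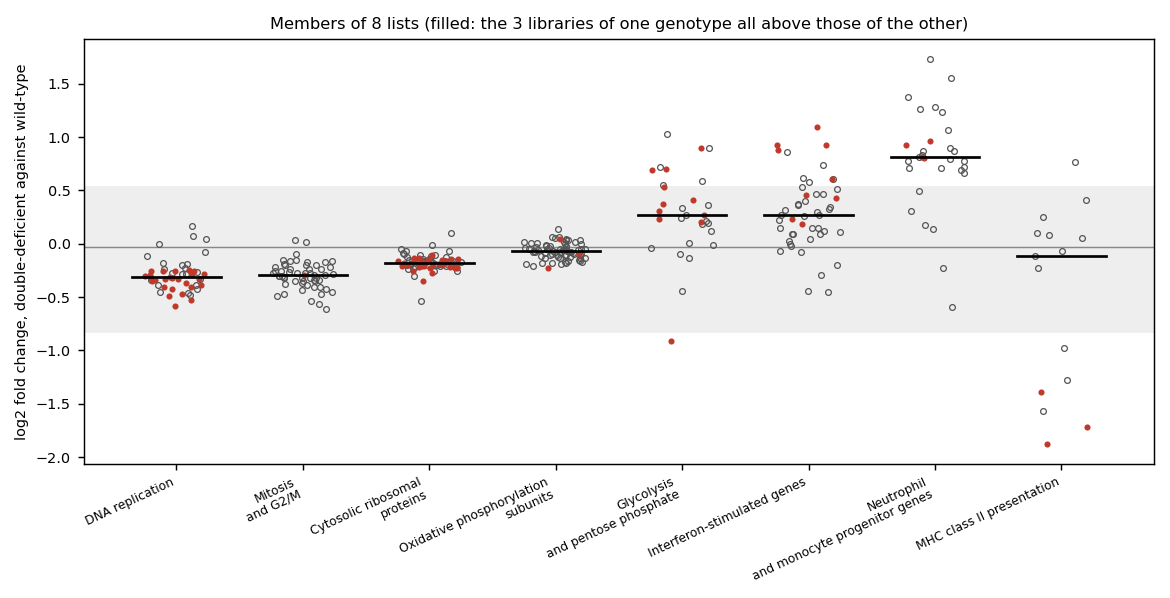
Log2 fold change of each tested member of 8 lists, double-deficient against wild-type CLPs, with black bars at list medians and filled red points where the 3 libraries of one genotype all lie above those of the other. The grey band runs from the 10th to the 90th percentile of all tested genes (-0.83 to 0.53) and the grey line is their median. DNA replication, mitosis and ribosomal protein genes lie mostly below 0, and neutrophil and monocyte genes above it.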

How the data were processed

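RNA of sorted CLPs was sequenced from 3 mice per genotype. The authors made poly(A) libraries, aligned the reads to mm10 with STAR (version 2.5.0a in the submitters' processing notes) and deposited, for each library, raw counts of reads on 24421 genes, not normalized. The counting program is not given in the sources used here. Reads on no gene (17.9% to 29.8%) and ambiguous reads (1.29% to 1.44%) were left out. The authors used DESeq2.

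R 4.3.3 and edgeR 4.0.16 were used for TMM factors, filtering by filterByExpr and the quasi-likelihood test (glmQLFit, glmQLFTest) with Benjamini-Hochberg adjustment, in 1 fit of the 12 CLP libraries with genotype as the only term. The population difference was tested over all 24 libraries with the mouse as a block. Standard errors came from the F statistic. The test was checked on simulated counts with known changes. It recovered 22.6% of genes with a log2 change of 1 in size and 62.6% of those with 2, with 5 false calls. A gene with 3 reads had 0.0903 to 0.699 CPM in these libraries, a floor that covers counting error only. Replicates of one group differed beyond sampling noise.

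The members and gene lists were chosen with earlier results of these data known. Named genes were the targeted genes, fixed anchor members of each list, every called gene, up to 4 members per list with the lowest p and the 15 genes per direction with the lowest p and no overlap. Alternatives were RLE factors, no filter on low counts, DESeq2 1.42.0, the 2 groups alone, a replicate block, no sex-linked genes, thinned counts, adjusted p alone and leaving out each library. Counts of list members without single libraries were chosen after seeing the data. Some named members are not reported here. Positions and promoters come from RefSeq GRCm38.p6, the build mm10. Figures were drawn with matplotlib in Python.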

Additional observations from a re-analysis of the deposited data

How the results depend on the processing

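The 14 genes called between double-deficient and wild-type CLPs became 169 with DESeq2, 50 when replicate numbers entered as a block, and 0 with the 2 groups alone (edgeR, 988 genes at an unadjusted p up to 0.05). Against Plcg1-/-Plcg2+/+ CLPs the 4 became 96, 17 and 0 (671 at the unadjusted p), and 7 with no filter on low counts. Against Plcg1+/+Plcg2-/- CLPs the 8 became 104, 26 and 0 (1087 at the unadjusted p), 13 with no filter, 1 without sex-linked genes and 5 with counts thinned to the smallest library. Leaving out 1 library gave 0 to 44, 1 to 18 and 1 to 18 calls in the 3 comparisons, and the count of 0 for the difference between both populations was the same under every alternative run. In the fit with the replicate block, all 14, 4 and 8 genes were among the calls. There 2 of 23 T lineage members were also called lower against wild-type, beside 25 of all 15209 tested genes. Deviations of same-numbered wild-type and double-deficient libraries correlated at 0.08, -0.13 and 0.27. Their mean was 0.07, against -0.03 for differently numbered libraries. With the block 1779 genes passed the unadjusted p against wild-type, and 1143 without it. With 3 libraries per genotype these values are too few to tell whether the replicate numbers pair the libraries. Of 180 values of the called genes under these alternatives none reversed its sign, and 69 no longer passed the thresholds. Of 545 list medians 15 moved by more than the spread between libraries. A median that changed sign within that spread was not counted as moved. That of early lymphoid progenitor genes, for example, went from -0.31 to 0.13 without wild-type replicate 1. With 3 libraries per genotype and 4291310 reads in the shallowest, differences of single genes at low levels were limited by both.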
